A study of Mus musculus with 2 samples.

Results

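A total of 226 protein-coding genes had no H3K27ac peak at their promoter in either replicate although 3 or more peaks seen in both replicates lay around them. These genes were chosen by the measured peaks: no peak of either replicate within 1 kb of any annotated start, and at least 3 peaks of replicate 1 that overlap a peak of replicate 2 by at least 1 bp, lie over 1 kb from every protein-coding start, and reach within 25 kb of the gene's 5′ end. Such peaks are called distal below, and a gene with a promoter peak in both replicates is called marked. The 226 genes are 1.03% of the 21938 protein-coding genes of GENCODE M21, and 1.8% of the 12564 genes whose promoters had no peak. Of the 8633 marked genes, 11.7% (1006) had 3 or more distal peaks. Since the peaks chose the genes, all values below are descriptions, and none was tested.

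The study profiled H3K27ac by chromatin immunoprecipitation and sequencing in macrophages grown from bone marrow of C57BL/6J mice and left without stimulation. This single group has 2 biological replicates from separate biosamples that carry a common donor entry (10 ng of starting DNA each), so the spread between them may be technical. Age and sex are not given in the labels. The replicates gave 29543 and 29345 peaks, and all 10 macrophage marker genes checked were marked, while none of 33 markers of other cell types was. Among those 33 is Cd4, which is itself a gene of the set. Longer lists of genes of other cell types, used below, did hold marked genes. These were 6 of 25 B cell, 5 of 31 neutrophil, 4 of 35 T and natural killer cell and 10 of 26 dendritic cell genes. The fibroblast and neuron lists held 0 of 25 and 0 of 22.

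Acetylation of lysine 27 on histone H3 is found at active promoters and at active enhancers, the regulatory elements that act on a gene from a distance. Genes that macrophages switch on after an inflammatory signal can have acetylated enhancers before the signal arrives. An enhancer does not always act on the nearest gene, so a peak near a gene need not belong to it. A peak list shows where signal passed the authors' threshold. The read depth is not given in the sources used here, so a promoter without a peak was below that threshold and need not lack H3K27ac.

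The sequences below are the centres of the highest distal peak around 7 of the genes, those with the most distal peaks in all or with the most that lie nearest to the gene's own start. Each shows 200 bases around the midpoint of the peak on the forward strand of GRCm38. Capitals mark a match to 1 of 6 words that stand for known macrophage factors, read on both strands: GAGGAAGT for PU.1, TGANTCA for AP-1, TTGCNNAA for C/EBP, GAAANNGAA for IRF, TGTGGTT for RUNX and GGGANTTTC for NF-kB.
Nanos3, chr8:84203562-84203761: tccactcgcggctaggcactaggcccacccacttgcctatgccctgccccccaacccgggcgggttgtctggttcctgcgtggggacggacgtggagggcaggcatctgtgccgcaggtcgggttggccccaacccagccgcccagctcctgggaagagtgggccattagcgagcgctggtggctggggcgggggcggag
Scgb1a1, chr19:9071411-9071610: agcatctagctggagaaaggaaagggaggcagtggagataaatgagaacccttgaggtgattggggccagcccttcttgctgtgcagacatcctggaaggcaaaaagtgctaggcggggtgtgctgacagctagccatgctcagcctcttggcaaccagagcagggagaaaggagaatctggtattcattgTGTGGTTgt
Gm11084, chr2:73004696-73004895: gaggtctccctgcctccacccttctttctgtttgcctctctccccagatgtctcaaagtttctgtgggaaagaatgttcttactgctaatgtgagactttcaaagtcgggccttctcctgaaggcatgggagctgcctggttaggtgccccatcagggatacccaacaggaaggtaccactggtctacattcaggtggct
Gm9964, chr11:79287140-79287339: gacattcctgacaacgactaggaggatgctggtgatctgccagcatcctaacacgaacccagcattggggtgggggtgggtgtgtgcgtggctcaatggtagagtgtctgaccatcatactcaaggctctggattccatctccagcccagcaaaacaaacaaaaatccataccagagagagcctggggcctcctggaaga
Cxcr5, chr9:44568186-44568385: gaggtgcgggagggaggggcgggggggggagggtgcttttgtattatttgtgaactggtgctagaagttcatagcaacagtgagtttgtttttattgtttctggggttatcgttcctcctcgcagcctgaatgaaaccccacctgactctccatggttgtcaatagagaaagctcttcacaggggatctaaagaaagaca
Klrb1b, chr6:128838657-128838856: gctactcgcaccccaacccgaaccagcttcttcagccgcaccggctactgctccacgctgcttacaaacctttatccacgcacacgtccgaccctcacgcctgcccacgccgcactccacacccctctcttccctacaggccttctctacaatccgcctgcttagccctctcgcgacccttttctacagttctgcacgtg
Egr3, chr14:70056912-70057111: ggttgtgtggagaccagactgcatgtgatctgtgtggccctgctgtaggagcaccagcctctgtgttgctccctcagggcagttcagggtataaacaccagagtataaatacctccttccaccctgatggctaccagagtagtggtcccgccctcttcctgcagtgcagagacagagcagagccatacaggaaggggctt

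A single match was found in these 7 windows, the RUNX word on the forward strand of the Scgb1a1 peak. Across the 743 distal peaks around the 226 genes, 10.5% held the C/EBP word, 8.61% the AP-1 word, 6.19% the IRF word, 5.79% the RUNX word, 3.23% the PU.1 word and 0.808% the NF-kB word. Among the 14326 other distal peaks these shares were 9.74%, 9.99%, 8.49%, 5.64%, 4.31% and 0.670% in the same order. Among the 12355 replicate 1 peaks at promoters of marked genes they were 8.58%, 5.37%, 7.04%, 3.84%, 2.14% and 0.785%. Each share counts windows of 200 bases with at least 1 match, words were counted separately where they overlap, and a match is a description of letters and not a binding site.

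The genes had from 3 to 8 distal peaks, and most stood at the lower limit. Exactly 3 peaks were found around 126 genes, 4 around 54, 5 around 26, 6 around 17, 7 around Scgb1a1 and Egr3, and 8 around Nanos3 alone. Below the limit, 360 genes without a promoter peak had 2 distal peaks, 1062 had 1 and 10916 had none. The label of genes surrounded by peaks holds for 113 genes of the set (50%, 95% Wilson interval 43.5 to 56.5), which had distal peaks on both sides of the 5′ end. Another 31.0% (70 genes) had them upstream alone and 19.0% (43 genes) downstream alone. The nearest distal peak lay a median of 7442 bp from the 5′ end, with a range of 1043 to 23543 bp. Intervals here and below cover counting error only.

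**Figure D1:**
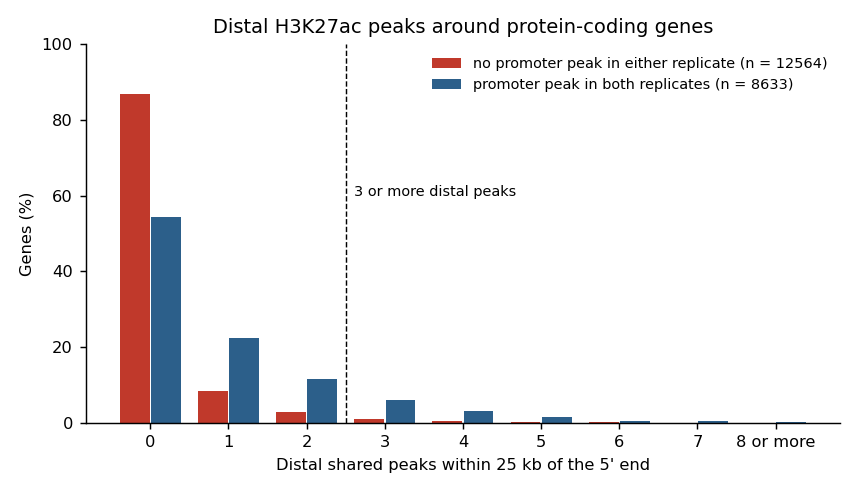
Share of genes (y axis, %) by number of distal peaks within 25 kb of the 5′ end (x axis), for the 12564 genes without a promoter peak (red) and the 8633 marked genes (blue). No distal peak was found around 86.9% of the first and 54.3% of the second, and the genes right of the dashed line have 3 or more.

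Genes stood just inside and just outside each limit of the rule. The 3 genes with 2 distal peaks and the highest sum of folds were Olfr1441, Pfpl and Tspoap1, and their highest peaks had folds of 45.3, 45.3 and 40.9 in replicate 1, where the fold is the authors' own ratio of signal in the peak to its control or background. Olfr1441 and Pfpl share that peak. The median of the highest fold was 8.78 over all 360 genes with 2 distal peaks and 11.7 over the 126 genes with 3. The highest of 3 folds tends to exceed the highest of 2 in any case, so these medians do not compare peak strength. At the promoter limit, Gm3336, Gm10282 and Gm11084 had their nearest distal peak 1043, 1106 and 1241 bp from the 5′ end. On the other side of it, a peak overlapped the promoter window by 55 bp at Fosb, an immediate early transcription factor gene, by 74 bp at Htra4 and by 87 bp at 3110082I17Rik, each of which had 3 or 4 distal peaks and otherwise met the rule.

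The distal peaks around the 226 genes had median folds near those of other distal peaks and were more often intergenic, a difference that was not tested. There were 743 distinct peaks, 4.93% of all 15069 distal peaks, and 95 of them lay within reach of 2 or more of the genes. Their median fold was 6.81 in replicate 1 and 7.92 in replicate 2, against 6.88 and 7.54 for the other distal peaks, and their median width was 955 bp against 1103 bp. In the upper 10% of distal peaks by replicate 1 fold were 11.6% of them and 9.97% of the others. By midpoint, 57.1% were intergenic (95% Wilson interval 53.5 to 60.6), 36.6% lay in introns and 6.33% in exons, against 44.8%, 51.7% and 3.49% of the other distal peaks. The choice of genes bears on these shares, because the peaks were taken within 25 kb of a 5′ end.

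Most of these peaks had similar folds in both replicates. The folds were within 1.5 times of each other in 88.3% of the 743 peaks and in 91.7% of the other distal peaks, and over 2 times apart in 6.06% and 3.75%. A broad replicate 2 peak can overlap several replicate 1 peaks, and its fold then stands beside each of them. At 18 of the 743 peaks (2.42%) the replicate 2 peak reached a protein-coding promoter window although the replicate 1 peak did not. Without these 18 peaks, 12 of the 226 genes no longer met the rule. The distal peaks of 180 genes (79.6%) overlapped 3 or more separate replicate 2 peaks.

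**Figure D2:**
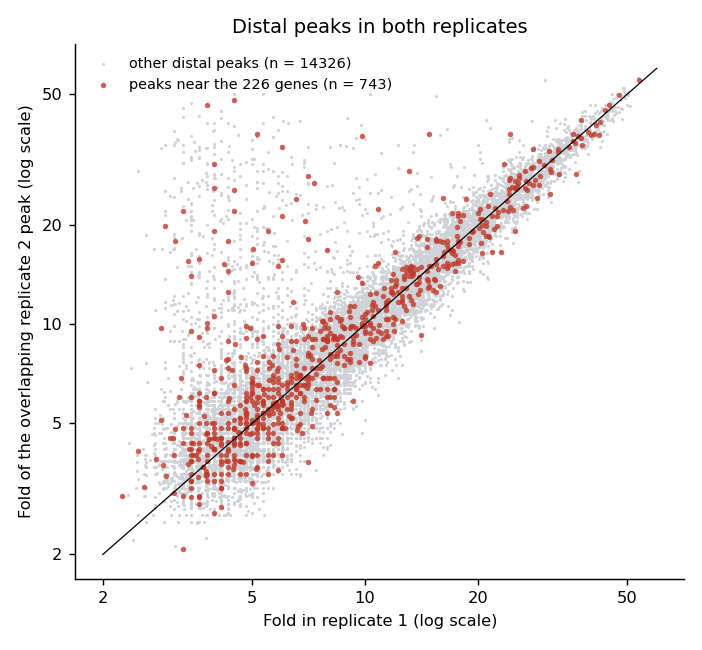
Fold of each distal peak in replicate 1 (x axis, log scale) against the fold of the overlapping replicate 2 peak (y axis, log scale), for the 743 peaks around the 226 genes (red) and 14326 other distal peaks (grey), with the line of equal folds. Most points lie near the line, and the points far above it are replicate 1 peaks that overlap a higher replicate 2 peak.

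Of the 19 gene lists examined, that of the rapid inflammatory response had the most genes in the set. Of 48 such genes 34 were marked, 12 had no promoter peak in either replicate, and 7 of those 12 (58.3%) belonged to the 226, against 1.8% of all genes without a promoter peak. The 7 are the transcription factor genes Egr1, Egr3 and Nr4a1, the signalling inhibitor gene Socs3, the chemokine genes Cxcl1 and Cxcl2, and the cytokine gene Il1b. The list was drawn up with earlier results of these data known, so its count is not independent of them. Of the 7, Cxcl2 did not meet the rule with replicate 2 alone. Neither Cxcl2 nor Egr1 met it with an overlap of 50% of both peaks, or in the authors' replicated list, made from both libraries together.

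Egr3, an immediate early zinc finger factor gene at 70077203 to 70082614 of chromosome 14 on the forward strand, had 7 distal peaks. From the farthest upstream to the farthest downstream, their replicate 1 folds were 7.06, 29.3, 14.8, 27.6, 5.85, 4.30 and 4.13. The overlapping replicate 2 peaks had folds of 28.2, 28.2, 15.1, 29.8, 8.71, 4.86 and 4.30, and the first 2 of these are the same broad peak. The 3 high peaks lay 9720 to 18253 bp upstream, and the window printed above is the centre of the peak with a fold of 29.3, which lay in an annotated intron. The nearest peak was 2287 bp upstream. The 2 downstream peaks were closer to the start of the marked gene Bin3, whose nearest start is 22902 bp away.

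Egr1, the related factor gene on chromosome 18, had 3 lower peaks with replicate 1 folds of 5.56, 6.02 and 6.54 and replicate 2 folds of 7.71, 4.86 and 7.88. Its nearest peak was 2907 bp upstream. The authors' replicated list, made from both libraries together, held a promoter peak at Egr1 with a fold of 4.45. Nr4a1, which encodes the nuclear receptor Nur77, had 5 peaks with replicate 1 folds of 3.76 to 6.02 and replicate 2 folds of 3.52 to 7.37, so its distal peaks were all below the median of other distal peaks in replicate 1. Its annotated starts span 18592 bp, and the reach of 25 kb is measured from the outermost of them.

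Socs3, which encodes an inhibitor of cytokine signalling, spans 117966079 to 117970047 of chromosome 11 on the reverse strand and had 4 distal peaks. The highest, 18833 bp upstream with folds of 17.7 and 17.3, lay in an intron and was nearest to the marked gene Pgs1. The 3 downstream peaks lay nearest to Socs3 itself and had replicate 1 folds of 5.33, 13.4 and 8.26 with distance, and replicate 2 folds of 5.36, 11.6 and 6.03. Il1b, the interleukin-1 beta gene at 129364570 to 129371139 of chromosome 2 on the reverse strand, had 3 peaks, all upstream. They lay 1616, 2501 and 8320 bp away with folds of 8.43, 5.38 and 11.4 in replicate 1 and 5.36, 6.16 and 11.4 in replicate 2. The nearest marked start, of Ckap2l, was 73927 bp from Il1b, and all 3 peaks were nearest to Il1b.

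Cxcl1 and Cxcl2, which encode chemokines that attract neutrophils, are neighbours on chromosome 5 and share 3 distal peaks, so they are not independent. Cxcl1 had 4 peaks with replicate 1 folds of 8.40, 11.4, 18.3 and 3.38. The highest, at 90896699 to 90899731, lay 5458 bp downstream of the Cxcl1 5′ end and 4140 bp upstream of the Cxcl2 5′ end, with a fold of 15.5 in replicate 2. The same replicate 2 peak overlaps the weakest replicate 1 peak. No marked start lay within 25 kb of either gene, and the nearest, of Mthfd2l, was 27246 bp from Cxcl2 and 39876 bp from Cxcl1. The replicated list held a promoter peak at Cxcl2 with a fold of 3.15.

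**Figure D3:**
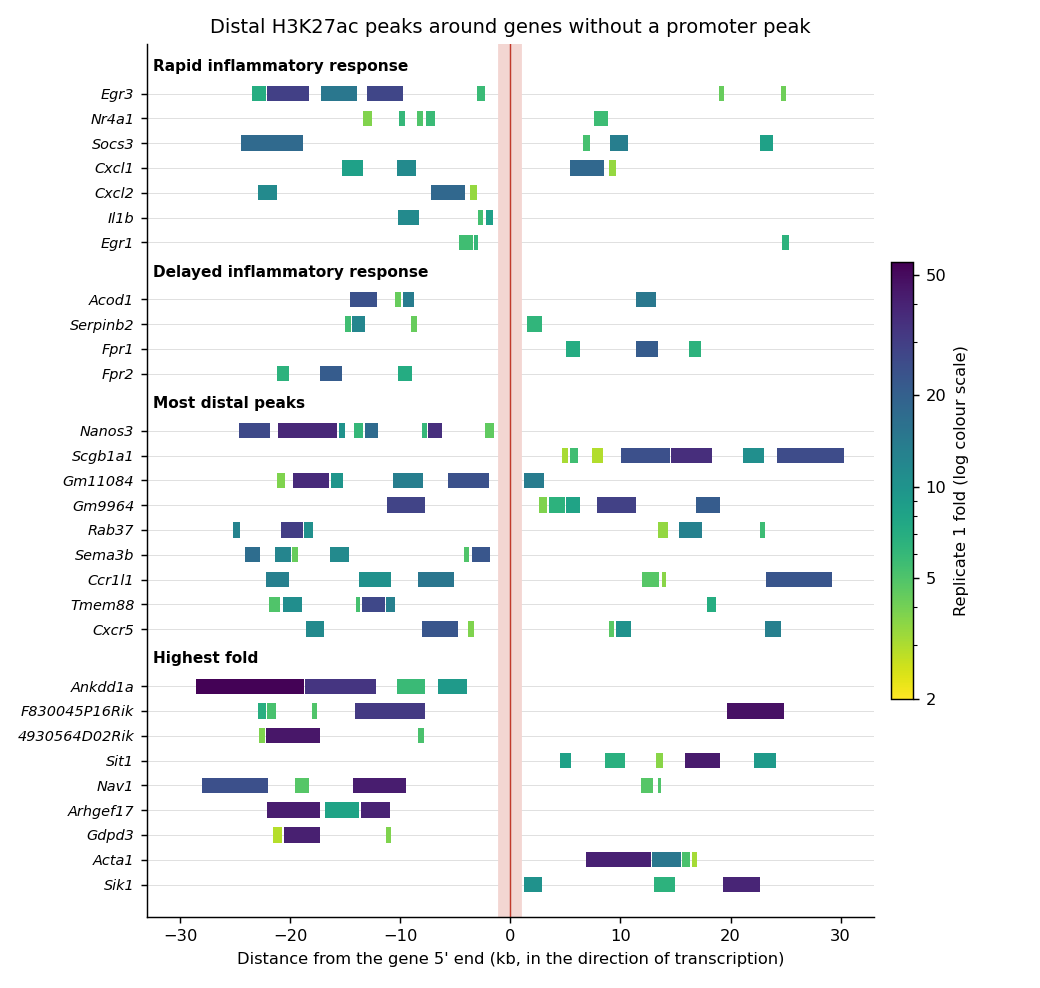
Distal peaks (bars, drawn to their width) around 29 of the 226 genes, by distance from the 5′ end in the direction of transcription (x axis, kb), coloured by replicate 1 fold on a log scale, with the promoter window of 1 kb on either side shaded. The window is empty by the rule, and genes such as Nanos3 and Scgb1a1 carry all their peaks on 1 side.

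Of 33 genes of the delayed inflammatory response without a promoter peak, 4 were in the set (12.1%, against 1.8% of all genes without a promoter peak). The shares were higher in the osteoclast (16.7%), muscle (15%) and dendritic cell (14.3%) lists, from 2 or 3 genes each. Acod1, whose product makes itaconate, had 4 peaks with replicate 1 folds of 24.3, 4.30, 13.9 and 14.6 and replicate 2 folds of 25.8, 3.69, 13.9 and 13.7. The highest lay 12138 bp upstream of the 5′ end, at 103032370 to 103034839 of chromosome 14. Serpinb2, which encodes a plasminogen activator inhibitor, had 4 peaks with folds of 4.30 to 12.1 in replicate 1 and a weak promoter peak in the replicated list (2.97). The formyl peptide receptor genes Fpr1 and Fpr2 share 3 peaks with their neighbours Fpr3, of the same family, and Has1, a hyaluronan synthase gene, and the highest had folds of 21.3 and 18.6.

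Of 8 genes fixed by name, those outside the set had no promoter peak in either replicate and did not reach 3 distal peaks. Cxcl10, an interferon-induced chemokine gene, and Ifnb1, the interferon beta gene, had 2 each, with highest replicate 1 folds of 16.4 and 6.19. Traf6, a signalling adaptor gene, had 1, at 20018 bp and a fold of 9.13, and Cebpb, a transcription factor gene, had 1 with a fold of 17.9. The replicated list held a promoter peak at Cebpb with a fold of 4.36, and a start of the marked gene Tmem189 lay 907 bp from it. Il6 had none within 25 kb. No gene of the interferon stimulated list was in the set, but only 9 of its 54 genes had no promoter peak. At the overall share of 1.8%, none of so few is near the background. No gene of the housekeeping list was in the set, since all 30 were marked.

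The 2 genes with the most peaks nearest to their own start are known from other tissues. Nanos3, which encodes an RNA-binding protein of germ cells and spans 84173731 to 84185217 of chromosome 8 on the reverse strand, had 8 peaks, all upstream and all nearest to its own start. The highest had folds of 37.9 and 35.2 and lay 15780 bp away, and another with folds of 35.1 and 34.5 lay 6176 bp away. Another replicate 1 peak, with a fold of 6.02, overlaps that same replicate 2 peak. Scgb1a1, which encodes a secretory protein of airway club cells, lies at 9083636 to 9087958 of chromosome 19. It had 7 peaks, all downstream, with its highest at folds of 35.8 and 37.9. All 7 lay beyond its 3′ end, and the highest was in an intron of another protein-coding gene. The nearest marked starts lay 36965 bp from Nanos3 and 47573 bp from Scgb1a1.

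Several further genes ranked high in the number of peaks nearest to their own start. Cxcr5, the receptor gene for a chemokine that guides B cells, had 6 peaks, all nearest to its own starts, 3 on either side of the 5′ end, with replicate 1 folds between 3.79 and 22.6 and replicate 2 folds between 3.35 and 22.0. The predicted gene Gm9964 had 6 with a highest fold of 29.1 and 31.3, and the predicted gene Gm11084 had 6 with a highest fold of 37.0 and 37.4 and lay 6270 bp from a start of the marked gene Sp3. Klrb1b, which encodes a lectin-like receptor of natural killer cells, had 6 upstream peaks, with a highest fold of 18.6 and 24.01, and shares them with Gm44511, which starts within 1 kb of it. Tgm2, the transglutaminase 2 gene, had 6 with folds of 14.8 and 13.1 at the highest. Tmem51, which encodes a transmembrane protein, had 6, of which 4 lay 1717 to 8471 bp downstream, and the highest had folds of 12.9 and 14.9.

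In other genes with many peaks, the peaks stood nearer to other starts. Tmem88, which encodes a transmembrane protein, had 6 distal peaks and none nearest to itself: 5 lay nearest to Kdm6b, a histone demethylase gene, and 1 to Chd3. A start of the marked gene Naa38 was 2116 bp from Tmem88 and had a promoter fold of 28.7. Sema3b, a secreted guidance factor gene, had 6 upstream peaks of which 1 was its own, with the marked gene Gnai2 6818 bp away at a fold of 23.6. Rab37, a small GTPase gene, had 2 of 6 as its own, and Ccr1l1, a relative of the chemokine receptor gene Ccr1, had 3 of 6 and lay 9716 bp from marked Ccr1. Gdpd3, a phospholipase gene, had 3 and none of its own, at 3057 bp from the marked kinase gene Mapk3.

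The highest distal peak of all 743 lay 18783 bp upstream of Ankdd1a, with folds of 53.8 and 55.5, and was nearest to Plekho2, a marked gene. F830045P16Rik followed with a peak in an intron within the gene at folds of 47.7 and 49.7, then 4930564D02Rik at 44.7 and 46.4, nearest to a marked gene. Sit1, an adaptor gene of T cells, had a peak with folds of 43.5 and 44.8, Nav1, a neuron navigator gene, 42.3 and 41.2, Arhgef17 42.1 and 37.6, and Gdpd3 41.2 and 40.3. Acta1, the skeletal muscle actin gene, reached 40.8 and 38.0 at 6912 bp downstream, and 3 of its 4 replicate 1 peaks overlap the same replicate 2 peak. Sik1, a kinase gene induced by many signals, had a peak with folds of 39.2 and 38.5 at 19285 bp downstream and a nearer one at 1279 bp with folds of 10.3 and 10.1. The nearest marked start to Sik1 was 196912 bp away. Over the 226 genes, the highest peak had a median fold of 14.1 in replicate 1 and 14.8 in replicate 2.

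Some genes known from other cell types were in the set. Of 31 genes of T and natural killer cells without a promoter peak 3 were (9.68%), against 1.8% of all genes without a promoter peak. Cd4, the helper T cell coreceptor gene, had 5 peaks with replicate 1 folds of 4.65, 12.6, 28.1, 17.04 and 5.33, and shares 4 of them with its neighbour Lag3, whose start was nearest to the 3 farthest upstream. Ctla4, an inhibitory receptor gene, had 3 with folds of 4.47 to 8.78. Cd6, a T cell surface glycoprotein gene, had 3 with folds of 3.76, 3.79 and 4.47, and the last overlaps a replicate 2 peak with a fold of 47.9 that lies at the marked transporter gene Slc15a3. Of 14 dendritic cell genes without a promoter peak 2 were in the set (14.3%). Batf3, a transcription factor gene of these cells, had 4 with a highest fold of 20.6 and 19.1, and H2-Oa, a class II accessory protein gene, had 3 and lay 21392 bp from marked Brd2. Of 20 muscle genes without a promoter peak 3 were in the set (15%), Acta1, Tnnt1 and Tnni3, and the last 2 share peaks with each other. Of 26 neutrophil genes 1 was (3.85%), Padi4, and of 18 B cell genes 1 was (5.56%), Fcrla. Of the genes named in this paragraph, Cd6, H2-Oa, Acta1 and Tnni3 did not meet the rule with replicate 2 alone. No gene of the fibroblast, endothelial, neuron, hepatocyte, erythroid or mast cell lists was in the set. Each of these lists had 13 to 23 genes without a promoter peak, so none is near the overall share of 1.8%.

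Genes of specialised macrophages were in the set as well. Among genes without a promoter peak they were 2 of 12 on the osteoclast list (16.7%), 1 of 17 of the interleukin-4 response (5.88%) and 1 of 20 of tissue-resident macrophages (5%), against 1.8% overall. The osteoclast genes were Atp6v0d2, a subunit gene of the proton pump, with 4 peaks and a highest fold of 30.9 and 33.7 in an intron 23335 bp downstream, and Ocstamp, a gene needed for fusion of osteoclast precursors, with 3 peaks and a highest fold of 12.6 and 10.2. Of the interleukin-4 response, Alox15, a lipoxygenase gene, had 3 upstream peaks with folds of 6.02, 17.7 and 17.2, and 2 of them overlap the same replicate 2 peak. Of the tissue-resident macrophage list, Cd5l, which encodes a secreted protein of tissue macrophages, had 4 with a highest fold of 26.9 and 22.9. Lyz1, the second mouse lysozyme gene, is on none of these lists and had 3 peaks with folds of 10.9, 20.3 and 25.2 in replicate 1. It lay 10547 bp from marked Lyz2, whose promoter folds were 26.9 and 22.4. Neither Lyz1 nor Alox15 met the rule with replicate 2 alone or in the replicated list.

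Some gene families that lie in clusters of related genes contributed several members, while 1.8% of all genes without a promoter peak were in the set. Of 11 Ms4a membrane protein genes without a promoter peak, 4 were in the set (36.4%): Ms4a4b, Ms4a4d, Ms4a5 and Ms4a14, with highest replicate 1 folds of 19.4, 18.3, 15.5 and 14.0. Their neighbours Ms4a1, Ms4a6b, Ms4a6c and Ms4a7 were marked. Ms4a5 and Ms4a14 share a distal peak, so they are not separate cases. Of 13 CXC chemokine genes without a promoter peak 3 were (23.1%; Cxcl1, Cxcl2 and Cxcl16), and of 15 C-type lectin genes 3 were (20%; Clec1a, Clec2e and Clec12b), with highest folds of 7.57, 7.40 and 5.16. Of 6 Fc receptor family genes 2 were (33.3%), Fcrla and Fcrlb. Other families had none in the set, among them the CC chemokines (0 of 14), interleukin receptors (0 of 26) and NLR genes (0 of 16). With so few genes in each of these families, 0 is near the overall share of 1.8%. Of 1125 olfactory receptor genes without a promoter peak 3 were (0.267%), of 1346 predicted genes 19 were (1.41%), and of 157 zinc finger protein genes 3 were (1.91%), and these last 2 shares are near that of all genes without a promoter peak. Across the 19 lists and 47 families, 91 of the 226 genes stood in at least 1.

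Neighbouring genes of the set often shared peaks and cannot be counted as separate cases. Joined by shared distal peaks, the 226 genes formed 193 groups, of which 164 held 1 gene and 29 held 2 to 4. A group of 4 on chromosome 1 spanned 92536 bp with 10 peaks and held Fcrla and Fcrlb, which encode Fc receptor-like proteins, Dusp12, a phosphatase gene, and Gm26620, beside the marked gene Atf6. The other group of 4, on chromosome 17, was Fpr1, Fpr2, Fpr3 and Has1, linked by 3 peaks within 12220 bp. Other pairs included Castor1 and Tbc1d10a, Bco1 and Pkd1l2, Cd4 and Lag3, Nr4a1 and Grasp, and the interferon genes Ifna2 and Ifnab.

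The start of a peak's nearest gene was a start of the set itself for 68.4% of the 743 peaks and of a marked gene for 28.3% (95% Wilson interval 25.1 to 31.6). The latter share was 9.01% with a reach of 10 kb and 48.0% with 50 kb. Among the other distal peaks the nearest start was of a marked gene in 75.8%. The rule itself bears on this difference, because the 743 peaks were taken within 25 kb of genes without a promoter peak. At least 1 distal peak was nearest to the gene's own start for 180 of the 226 genes (79.6%), every distal peak was for 86 (38.1%), and the highest was for 123 (54.4%). At the other end, 24 genes had every distal peak nearest to a marked gene, among them Gdpd3, 4930564D02Rik and Retn, which encodes resistin. A start of a non-coding gene lay within 1 kb of 10.5% of the 743 peaks and of 7.90% of the other distal peaks.

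A marked gene stood within 25 kb of 107 of the 226 genes (47.3%, 95% Wilson interval 40.9 to 53.8). The same was found for 44.0% of the 1422 genes without a promoter peak that had 1 or 2 distal peaks, for 16.2% of those that had none, and for 34.3% of all protein-coding genes. The median distance from the 5′ end to the nearest start of a marked gene was 27371.5 bp for the 226 genes, 29097 bp for genes with 1 or 2 distal peaks and 134018 bp for genes with none. Genes of the set were thus close to genes with 1 or 2 distal peaks in this respect, and the difference from genes with no distal peak was not tested.

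**Figure D4:**
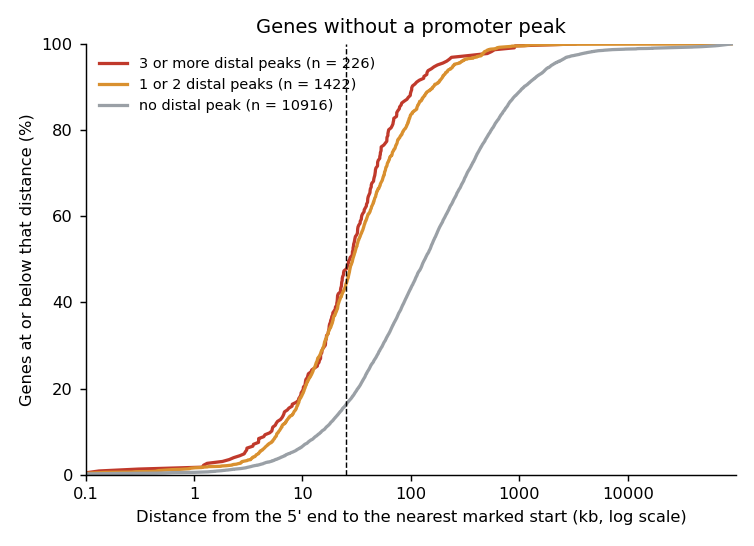
Share of genes without a promoter peak (y axis, %) whose nearest start of a marked gene lies at or below a distance (x axis, kb, log scale, with distances below 0.1 kb drawn at 0.1), by number of distal peaks. The lines for 3 or more and for 1 or 2 distal peaks run close together, with 47.3% and 44.0% at the dashed line of 25 kb, above the line for no distal peak at 16.2%.

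The 143 marked genes within 25 kb had a median promoter fold of 11.7 in replicate 1 and 12.6 in replicate 2, against 10.5 and 11.1 over all marked genes. The highest promoter peaks among them were at Slc15a3, beside Cd6, with folds of 49.0 and 47.9, and at Brd2, a chromatin reader gene beside H2-Oa, with 48.2 and 52.3. Arrb2, an arrestin gene, stood beside Cxcl16 and Zmynd15 with 43.4 and 50.3, Setd1b, a histone methyltransferase gene, beside Rhof with 41.0 and 43.7, and Vps18 beside Rhov with 40.1 and 39.4. More than 1 marked gene was within 25 kb for 33 genes of the set (14.6%). Apoc4 had 5, among them Apoe, the apolipoprotein E gene. The 5′ end of 13 genes (5.75%) lay inside a marked gene, such as Xirp1 inside Cx3cr1, the fractalkine receptor gene, and Gm17334 inside Irf1, an interferon regulatory factor gene. These 2 shares were not compared with other genes, so they do not set the 226 genes apart.

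The sequence at the 5′ ends of the 226 genes had a low content of CpG, as did that of other genes without a promoter peak. The ratio of observed to expected CpG within 500 bp of the 5′ end had a median of 0.33 for the 226 genes, 0.30 for the other genes without a promoter peak and 0.73 for marked genes. A ratio of at least 0.6 was found in 25.7% (58 genes), 26.7% and 72.0%. Of the other genes without a promoter peak, those with 1 or 2 distal peaks had a median ratio of 0.38, with 31.9% at 0.6 or more. The 226 genes were thus close to the other genes without a promoter peak and below marked genes. Examples at the upper end were Sik1 and Slc30a1, a zinc transporter gene, both at 0.94, and at the lower end Fpr2 and Fpr3, both at 0.05. Marked genes with 3 or more distal peaks had a median of 0.72.

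**Figure D5:**
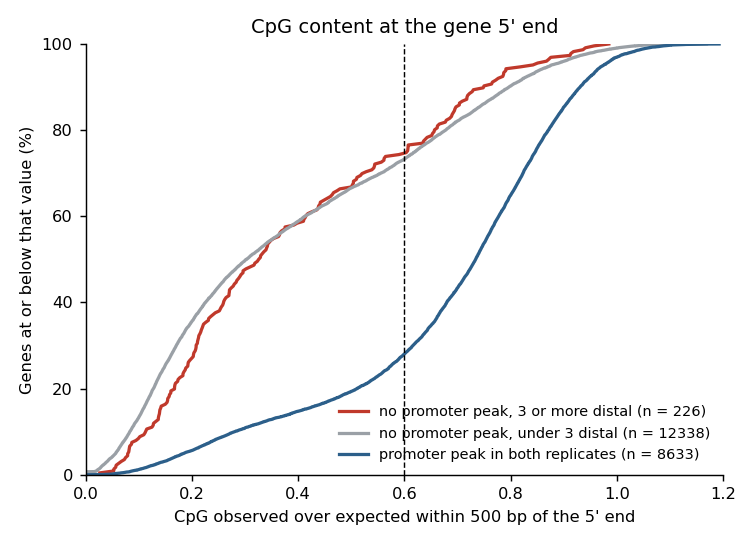
Share of genes (y axis, %) with an observed over expected CpG ratio at or below a value (x axis) within 500 bp of the 5′ end. The 226 genes (red, median 0.33) follow the other genes without a promoter peak (grey, 0.30), and marked genes (blue, 0.73) lie to the right.

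Both kinds of promoter are shown here, since neither carried a peak in either replicate. They are the RefSeq promoters, on GRCm38.p6 and the reverse strand, of Tmem51 and of Il1b, chosen after the values were seen. Capitals mark CG, of which Tmem51 has 19 and Il1b has 3. Both genes start at the same base in RefSeq and GENCODE.
Tmem51, chr4:142084255-142084554: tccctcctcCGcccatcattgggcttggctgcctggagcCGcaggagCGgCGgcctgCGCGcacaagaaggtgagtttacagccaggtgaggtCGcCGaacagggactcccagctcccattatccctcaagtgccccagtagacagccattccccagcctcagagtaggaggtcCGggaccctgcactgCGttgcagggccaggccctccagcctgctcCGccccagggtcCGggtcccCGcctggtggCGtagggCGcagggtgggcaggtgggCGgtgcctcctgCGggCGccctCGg
Il1b, chr2:129371090-129371389: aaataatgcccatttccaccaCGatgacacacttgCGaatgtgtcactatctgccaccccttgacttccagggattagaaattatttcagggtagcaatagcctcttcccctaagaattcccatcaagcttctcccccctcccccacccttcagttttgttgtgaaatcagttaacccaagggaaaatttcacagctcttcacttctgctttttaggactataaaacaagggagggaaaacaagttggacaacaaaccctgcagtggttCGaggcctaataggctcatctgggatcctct

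The lists made from both libraries together held a promoter peak at a few of the 226 genes. The replicated list had a peak in the promoter window of 24 (10.6%, 95% Wilson interval 7.24 to 15.3), against 2.76% of the other genes without a promoter peak. The pooled list had a peak at 17 (7.52%), a share that was not compared with other genes. The median fold of those 24 was 3.25 in the replicated list, with a range of 2.12 to 7.98. The highest was at Plac8, at 7.98, followed by Gm3336 at 6.31, Pla2g7, a phospholipase gene, at 5.10, and Egr1. Cxcl16, a chemokine gene with 5 distal peaks, had 3.34, and Gclc, a glutathione synthesis gene, had 3.25.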

How the data were processed

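H3K27ac was measured in 2 replicates of 1 group. The deposited mm10 lists hold peaks that the authors called, per the labels, for each replicate from its own alignments, and 2 further lists (replicated and pooled) from both libraries together, which have no SD or n. Per the file columns, each deposited peak has a score, a fold (the linear ratio of signal to control or background), and a q-value as −log10. The fold was used only to describe or rank peaks within a list, and paired folds are in the order of the replicates. The aligner, the peak caller and the depth are not given in the sources used here. No sample columns were left unused.

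Positions are 1-based on GRCm38 with GENCODE M21 starts (all transcripts of 21938 protein-coding genes). The rule was applied with Python 3.11.15, numpy 2.4.6 and pandas 2.3.3, and was tested on simulated data. Distances run from the 5′ end to the nearest edge of a peak. A gene counts as marked when peaks of both replicates overlap 1 kb on either side of any start. The replicate 2 fold of a peak is that of the highest replicate 2 peak overlapping it. Promoter sequences are from RefSeq. Intervals are 95% Wilson intervals (scipy 1.17.1).

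The members and lists were chosen with earlier results of these data known. Of the names in the lists, 7 matched no protein-coding symbol. Named genes are the 10 with most distal peaks, with the highest fold and with most peaks nearest to their own start, up to 3 from each list or family, the largest linked groups, genes just outside each limit, and 8 fixed genes. Others named in the text were chosen after their values were seen. The alternatives changed the promoter window, the starts, the reach, the number of peaks, the overlap, the threshold, the list and the joining of peaks, or left out a replicate. Distance to the midpoint and starts of protein-coding transcripts alone were chosen after seeing the data.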

Additional observations from a re-analysis of the deposited data

How the results depend on the processing

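The number of genes that meet the rule depends on its limits. It was 226 as reported, 455 when the promoter was the 5′ end alone, 35 with a reach of 10 kb, 788 with 50 kb, 586 with 2 or more distal peaks, 46 with 5 or more, 145 with an overlap of 50% of both peaks and 96 after peaks within 2 kb were joined. It stayed within 1.5 times of 226 under the other 10 alternatives, at 153 with a promoter window of 2.5 kb and 301 in the replicated list, which shared 153 of the 226 genes. A single replicate gave 261 to 305 genes. Replicate 2 alone shared 177 of the 226. The share with a marked gene within 25 kb was 47.3% as reported, and 41.8% with a 2.5 kb window, 39.3% with the 5′ end alone, 34.8% with 5 or more distal peaks, 44.1% with 50% overlap, 43.4% with replicate 2 peaks over replicate 1, 44.3% with starts of protein-coding transcripts alone, and 44.1 to 47.2% in single replicates. The cause of these shifts was not tested. Cxcr5, Gm9964 and the polycystin relative Pkd1l2 met the rule under all 17 alternatives. The share of genes with peaks on both sides ranged from 31.9 to 76.1%. The share of peaks nearest to a marked gene ranged from 9.01 to 48.0% and that of genes with a peak nearest to their own start from 57.5 to 94.3%, each lowest and highest with a reach of 10 or 50 kb. No read depth is given, so what a deeper library would call at these promoters is unknown, and a peak just below the threshold in 1 replicate drops out.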
